A study of Homo sapiens with 8 samples.

Results

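The genes described here, the members, are 9 genes of cytokines and their binding partners. They are IL15 with its receptor alpha chain gene IL15RA, IL18 with its soluble inhibitor gene IL18BP, and IL7, CSF1, LIF, IL32 and TNFSF13B. They were taken by symbol from the deposited table and were all found, 9 of 26372 genes. The cells were BE(2)-M17, an established human neuroblastoma line, in 4 libraries given interferon-γ (IFN-γ) at 10 ng/ml for 24 h and 4 untreated libraries, with no other agent or allele named. Total RNA depleted of ribosomal RNA was sequenced in pairs, and values are FPKM, fragments per kilobase of transcript, relative to the mapped fragments of each library. Whether replicates were separate cultures is not in the labels, so each p-value measures only the spread between libraries, possibly technical.

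Interleukin 15 is a growth factor of natural killer and memory T cells that is held on the producing cell by IL15RA and presented to neighbours carrying the receptor chains IL2RB and IL2RG. Interleukin 18 is made as an inactive precursor, is cut by caspase 1 (CASP1), and acts through IL18R1 and IL18RAP to raise IFN-γ output of T and natural killer cells. IL18BP is a secreted decoy that binds interleukin 18, and its induction by IFN-γ is a known negative feedback.

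The libraries of a group were alike, with Pearson's r of log2 values of at least 0.983 within a group and at most 0.938 between groups. Depth, estimated from the steps between low FPKM values, was about 14.1 to 20.1 M fragments. The stated target was 100 M reads, a different unit, since a fragment gives a pair of reads. IFN-γ replicate 4 stood apart: the median gene differed by 0.178 to 0.185 on the log2 scale in its 3 pairs, against 0.0781 to 0.0911 in the other 9 pairs of a group. IRF1, an early target of IFN-γ signalling, was at 125 ± 2.14 FPKM with IFN-γ and 0.584 ± 0.0404 FPKM untreated (SD, n = 4 each). Of 10 neuroblastoma markers, 9 had a mean of at least 0.5 FPKM. CD3D, CD3E and CD2 of T and natural killer cells, MS4A1 of B cells, CD163 of macrophages, and FLT3, CD1C and CLEC9A of dendritic cells were listed at 0 in all 8 libraries. The 8 markers of monocytes and macrophages summed to 1.08 to 2.01 FPKM with IFN-γ and 0.886 to 1.25 FPKM untreated, and the part of this in the results below was not tested. Of these, CD68 was at 0.747 FPKM with IFN-γ and 0.607 FPKM untreated, and CD14 at 0.429 and 0.355 FPKM. TYROBP was seen in IFN-γ replicates 3 and 4 only. The 4 markers of B cells summed to at most 0.179 FPKM with IFN-γ and 0.142 FPKM untreated. The 7 markers of T and natural killer cells summed to at most 0.220 FPKM with IFN-γ and 0.140 FPKM untreated. The 4 endothelial markers summed to at most 0.0607 FPKM with IFN-γ and 0.112 FPKM untreated.

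The members fell into 3 patterns. IL18BP, CSF1, IL15 and IL15RA rose by 3.17 to 4.47 on the log2(FPKM + 0.1) scale, IL7 rose by 0.58, and IL18, LIF, IL32 and TNFSF13B stayed below the level at which genes were tested. The filter was a mean of 0.5 FPKM over the 8 libraries, which 5 members passed. IL15RA passed it only through its IFN-γ libraries. All 5 tested members, IL15RA among them, passed a limma adjusted p of 0.05 upward, where 22.3% of the 13598 genes tested passed in either direction, 13.3% higher and 9.05% lower. For the same 5 the groups did not overlap, as for 28.2% of genes tested, 15.4% higher and 12.9% lower. Their median change was 3.60, against -0.0047 over all genes tested. Since the members were chosen with results of these data known, these counts describe the genes and carry no test. In bulk RNA, fewer expressing cells and less RNA per cell cannot be told apart.

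**Figure D1:**
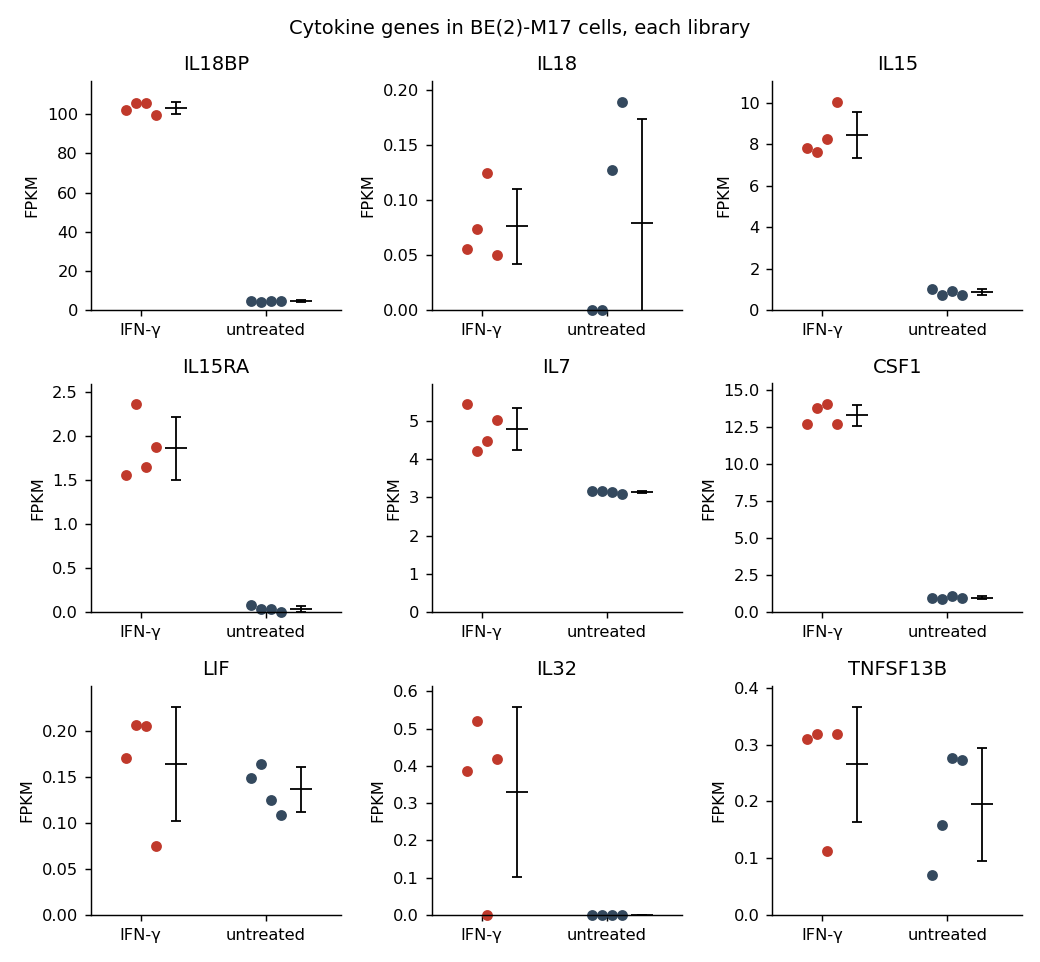
FPKM of the 9 members in each library (points), IFN-γ left and untreated right. The mean and SD of 4 libraries are shown as a black bar, cut at 0. The groups are apart for IL18BP, IL15, IL15RA, IL7 and CSF1 and overlap for IL18, LIF, IL32 and TNFSF13B, whose values are all at most 0.520 FPKM.

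The order of the levels differed between the groups. With IFN-γ the means ran IL18BP 103, CSF1 13.3, IL15 8.45, IL7 4.78 and IL15RA 1.86 FPKM, and all 4 libraries of each lay above those of the next. The next in order were IL32, TNFSF13B, LIF and IL18, and none of these was set apart from its neighbour. Untreated, IL18BP led at 4.58 FPKM, followed by IL7 at 3.14, each above the next in all 4 libraries. CSF1 at 1.00 and IL15 at 0.851 FPKM were not set apart, and below them neither were TNFSF13B, LIF, IL18, IL15RA and IL32. The FPKM of the 9 genes summed to 133 ± 2.63 with IFN-γ and 10.0 ± 0.514 untreated. IL18BP made up 76.5 to 78.6% of that sum with IFN-γ and 44.9 to 46.6% untreated.

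**Figure D2:**
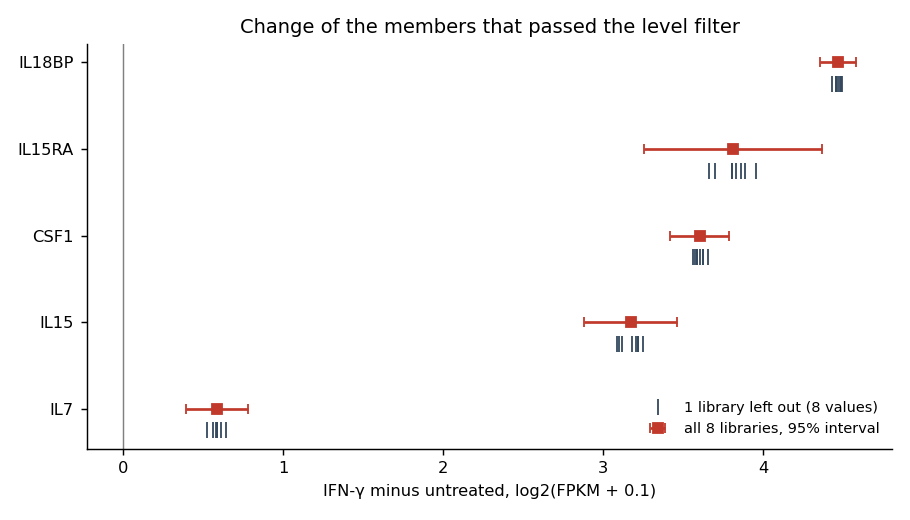
Change of the 5 tested members, IFN-γ minus untreated on the log2(FPKM + 0.1) scale, as squares with the 95% interval of the limma fit, and below each the 8 values with 1 library left out (ticks). IL18BP is at 4.47 and IL7 at 0.58, no value lies left of 0, and the place of IL15RA in the order depends on the pseudocount.

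IL18BP, the decoy, was the most abundant gene of the set in both groups. It was at 102, 106, 106 and 99.6 FPKM in IFN-γ replicates 1 to 4, against 4.74, 4.22, 4.84 and 4.51 FPKM in untreated replicates 1 to 4. Every IFN-γ library lay far above every untreated one, with little spread in either group. By limma the change was 4.47 in log2 units (SE 0.05, adjusted p = 1.4e-12), the 83rd largest rise of 13598 genes, and by level IL18BP stood 613th with IFN-γ and 9144th untreated. For this gene and for IL15, IL15RA, IL7 and CSF1, p was 0.0286 by exact permutation (two-sided), the lowest value 70 arrangements can reach. IL18BP sits at 71998541 to 72005715 of chromosome 11, forward strand (GRCh38, GENCODE release 29). There 15.6% of its exonic bases are shared with NUMA1, a spindle protein gene on the other strand, and the library kit does not mark strand. NUMA1 fell, at 31.5, 29.7, 31.5 and 26.4 FPKM with IFN-γ and 37.8, 34.7, 35.4 and 35.9 FPKM untreated (log2 change -0.27, SE 0.06, limma adjusted p = 0.00805). In TPM, where the median gene moved by 0.79, its change was 0.53, or -0.26 relative to that median. How much of the untreated IL18BP level comes from fragments of NUMA1 was not tested.

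IL18, the cytokine that IL18BP binds, was barely detected. It was at 0.0557, 0.0735, 0.125 and 0.0503 FPKM in the IFN-γ libraries, about 1.71 to 3.55 fragments each by the longest transcript. Untreated replicates 3 and 4 had 0.127 and 0.190 FPKM, at most about 5.22 fragments, and replicates 1 and 2 were listed at 0. The groups overlapped, so no change in IL18 was detectable at this depth. IL18 sits at 112143251 to 112164117 of chromosome 11, reverse strand. The ratio of IL18BP to IL18 was not tested because IL18 did not pass the filter.

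The 4 RefSeq promoter windows of IL18BP (GRCh38.p14, 250 bases before an annotated start to 50 from it) were searched for 3 motifs on both strands, chosen after the windows had been seen. These were the gamma-activated site GAS, TTCNNNGAA, the interferon-stimulated response element ISRE, taken as GAAA, any 2 bases and GAAA again, and the interferon regulatory factor core AANNGAAA, which an ISRE contains. Of all 34943 windows, 7.66% held a GAS, 3.57% an ISRE and 22.9% a core. Of the IL18BP windows, 1 held any match. It had an ISRE from -67 to -58 relative to the start base, counted as 0, overlapping cores from -71 to -64 and from -65 to -58, and a GAS at -37 to -29 and another at -7 to 1. It is printed because IL18BP was the most abundant member, and capitals mark the matches. Whether transcripts start here in these cells was not measured, and a match is a description of the letters.
IL18BP promoter, chr11:71999367-71999666, forward strand: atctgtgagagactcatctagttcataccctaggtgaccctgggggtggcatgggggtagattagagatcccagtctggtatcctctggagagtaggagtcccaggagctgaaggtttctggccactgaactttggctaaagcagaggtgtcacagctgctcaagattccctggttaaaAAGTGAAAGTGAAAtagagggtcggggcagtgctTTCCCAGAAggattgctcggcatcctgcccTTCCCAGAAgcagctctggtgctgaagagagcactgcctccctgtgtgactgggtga

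IL15 and IL15RA, the cytokine and the chain that presents it, both rose. IL15 was at 7.83, 7.65, 8.26 and 10.1 FPKM in IFN-γ replicates 1 to 4, against 1.00, 0.747, 0.940 and 0.714 FPKM in untreated replicates 1 to 4. The groups were far apart, and IFN-γ replicate 4 was the highest library. By limma the change was 3.17 in log2 units (SE 0.13, adjusted p = 3.2e-08), and 3.09 without IFN-γ replicate 4. By its longest transcript of 6026 nt, IL15 rested on about 649 to 1217 fragments per library with IFN-γ and about 69.8 to 99.1 untreated. IL15 sits at 141636599 to 141733987 of chromosome 4, forward strand, with no other annotated gene overlapping it.

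IL15RA was at 1.56, 2.36, 1.65 and 1.88 FPKM in IFN-γ replicates 1 to 4. Untreated replicates 1 to 3 had 0.0856, 0.0362 and 0.0430 FPKM and replicate 4 was listed at 0, which is at most about 2.59 fragments, against about 51.1 to 69.7 with IFN-γ. Every IFN-γ library was thus well above every untreated one, and the size of the change rests on a handful of untreated fragments. By limma the change was 3.81 in log2 units (SE 0.25, adjusted p = 1.6e-06), but 1.45 with a pseudocount of 1 and 5.56 with a pseudocount of 0.01. As IL15RA entered the test through its IFN-γ libraries alone, the fit without a filter is given too (limma adjusted p = 3.2e-06). Within a library, log2 IL15RA minus log2 IL15 was -2.13 ± 0.322 with IFN-γ and -2.77 ± 0.209 untreated (SD, n = 4 each). The difference was 0.64 (p = 0.0286 by exact permutation, two-sided, for the 1 ratio computed), but it was -0.90 with a pseudocount of 1, so its sign depended on the pseudocount.

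IL15RA sits at 5943639 to 5978187 of chromosome 10, reverse strand, and 4.16% of its exonic bases are shared with an annotated non-coding gene of the same strand. Its 4 RefSeq windows held no ISRE, while 1 held a GAS and 2 overlapping windows held the same core. The window with the core at -66 to -59 is shown because IL15RA rose with IL15, and capitals mark that core.
IL15RA promoter, chr10:5977494-5977793, reverse strand: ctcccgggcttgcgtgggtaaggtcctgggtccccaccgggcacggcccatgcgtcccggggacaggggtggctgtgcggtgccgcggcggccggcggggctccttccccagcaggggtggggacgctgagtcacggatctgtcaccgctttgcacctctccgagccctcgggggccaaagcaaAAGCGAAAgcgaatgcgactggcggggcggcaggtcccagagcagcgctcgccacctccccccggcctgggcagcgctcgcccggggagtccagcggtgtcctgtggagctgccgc

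Apart from IL15RA, the receptor chains for interleukins 15, 18 and 7 were at or near 0. IL2RG, shared by the receptors for interleukins 2, 7 and 15, and IL18RAP were listed at 0 in all 8 libraries. IL2RB was listed at 0 in all 4 IFN-γ libraries and in untreated replicates 2 and 3, with 0.0146 and 0.0290 FPKM in untreated replicates 1 and 4. IL18R1 was listed at 0 in 7 of the 8 libraries and at 0.0137 FPKM in IFN-γ replicate 4. IL7R was at 0.0108 to 0.0358 FPKM with IFN-γ and at most 0.0136 FPKM untreated. These genes lay far below the filter and were not tested.

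A list of 14 genes held receptor chains of interleukins 2, 4, 7, 9, 13 and 21 and of TSLP with their kinases and transcription factors, and 6 were tested, 2 rose and 1 fell, with a median change of -0.00057. The 3 receptor genes tested, IL4R, IL13RA1 and IL13RA2, are chains for interleukins 4 and 13. STAT5A, a transcription factor gene of the list, rose to 2.43 ± 0.228 FPKM with IFN-γ, against 0.832 ± 0.110 FPKM untreated (log2 change 1.44, SE 0.13, limma adjusted p = 1.8e-05). For its paralog STAT5B, at 10.7 ± 0.226 FPKM with IFN-γ and 11.1 ± 0.260 FPKM untreated, the test was not passed. The kinase gene JAK1 was at 21.7 ± 0.160 FPKM with IFN-γ and 19.5 ± 0.871 FPKM untreated (log2 change 0.15, limma adjusted p = 0.0228), a call lost without IFN-γ replicate 1 or 2 or untreated replicate 1 or 2 (adjusted p = 0.0514 to 0.0731), under quantile normalization (0.142) and in TPM without short RNA genes (0.474). IL13RA2, a decoy receptor for interleukin 13, fell to 14.1 ± 2.17 FPKM with IFN-γ, against 26.9 ± 2.36 FPKM untreated (log2 change -0.94, SE 0.10, limma adjusted p = 9.1e-05). In TPM the IL13RA2 call was lost, with a change of -0.14 (limma adjusted p = 0.676), or -0.92 relative to the median gene.

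Several genes for the cutting and release of interleukin 18 rose, while IL18 and 9 of the 15 inflammasome genes listed did not reach the filter. Of 15 inflammasome genes, 6 were tested and 5 rose, with a median change of 3.02 that includes genes listed at 0 untreated. Of the 5, all but CASP4 passed the filter only through their IFN-γ libraries. CASP1 was at 5.97, 5.87, 6.52 and 7.52 FPKM in the IFN-γ libraries and listed at 0 in all 4 untreated ones. CARD16, which lies beside CASP1 and shares near-identical sequence with it, was at 1.99, 1.28, 1.51 and 1.74 FPKM with IFN-γ and listed at 0 in all 4 untreated libraries, so the division between the pair is uncertain. CASP4, an inflammatory caspase that senses bacterial lipopolysaccharide, rose to 4.79 ± 0.539 FPKM with IFN-γ, against 0.577 ± 0.177 FPKM untreated (log2 change 2.89, SE 0.19, limma adjusted p = 1.5e-06). GSDMD, the pore former through which mature interleukin 18 can leave a cell, was at 1.56, 0.855, 1.31 and 1.11 FPKM with IFN-γ and at most 0.0734 FPKM untreated. AIM2, also of this list, was at 1.25 ± 0.178 FPKM with IFN-γ and 0.187 ± 0.0528 FPKM untreated, with no overlap. Its log2 change was 2.24 (SE 0.21, limma adjusted p = 2.8e-05). NEK7 was tested and did not pass (limma adjusted p = 0.0962). Of the genes below the filter, PYCARD averaged 0.290 FPKM with IFN-γ and 0.235 FPKM untreated, with overlap. NLRC4 was at 0.192 to 0.493 FPKM with IFN-γ and 0.287 to 0.611 FPKM untreated. NLRP1 was at most 0.0397 FPKM with IFN-γ and 0.0483 FPKM untreated, and NLRP3 at most 0.0179 and 0.0260 FPKM. Whether interleukin 18 is cut or released was not tested.

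Of 22 genes of the interleukin 18 and interleukin 1 family and its signalling, 6 were tested and 2 rose, with a median change of 0.09. MYD88, the adaptor of these receptors, rose to 9.71 ± 0.423 FPKM with IFN-γ, against 5.27 ± 0.156 FPKM untreated (log2 change 0.87, SE 0.05, limma adjusted p = 1.0e-06). The ubiquitin ligase gene TRAF6 was at 3.08 ± 0.0624 FPKM with IFN-γ and 2.47 ± 0.292 FPKM untreated (log2 change 0.32, limma adjusted p = 0.0373), a call lost without any 1 IFN-γ replicate or without untreated replicate 1 or 2 (adjusted p = 0.0523 to 0.102), with no filter (0.0601), under quantile normalization (0.0577) and in TPM without short RNA genes (0.172).

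CSF1, the growth factor of macrophages and microglia, rose strongly. It was at 12.7, 13.8, 14.0 and 12.7 FPKM in IFN-γ replicates 1 to 4, against 0.969, 0.907, 1.13 and 1.01 FPKM in untreated replicates 1 to 4. Both groups were tight and far apart. By limma the change was 3.60 in log2 units (SE 0.08, adjusted p = 3.1e-10), on about 816 to 1073 fragments with IFN-γ and about 66.9 to 76.2 untreated. CSF1 sits at 109910242 to 109930992 of chromosome 1, forward strand, with no overlapping gene. Its receptor gene CSF1R was at 0.147 to 0.200 FPKM with IFN-γ and 0.0790 to 0.270 FPKM untreated, so the groups overlapped.

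Among 13 other colony-stimulating factors, related growth factors and receptors, only FLT3LG was tested. FLT3LG, the ligand that supports dendritic cell development, was at 5.35, 5.70, 5.07 and 6.17 FPKM with IFN-γ, against 0.406, 0.285, 0.467 and 0.679 FPKM untreated. It rose with no overlap (log2 change 3.39, SE 0.19, limma adjusted p = 5.3e-07), although it passed the filter only through its IFN-γ libraries, while its receptor gene FLT3 was listed at 0 in all 8 libraries.

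IL7, a survival factor of lymphocytes, changed least among the tested members. It was at 5.42, 4.20, 4.46 and 5.01 FPKM in IFN-γ replicates 1 to 4, against 3.16, 3.16, 3.14 and 3.09 FPKM in untreated replicates 1 to 4. The untreated libraries were nearly equal and all lay below the lowest IFN-γ one. By limma the change was 0.58 in log2 units (SE 0.09, adjusted p = 7.8e-04), the 747th largest rise. IL7 sits at 78675743 to 78805523 of chromosome 8, reverse strand, and 9.49% of its exonic bases are shared with ZC2HC1A on the other strand. An annotated non-coding gene of that other strand shares 6.81%. ZC2HC1A was at 17.3 ± 0.277 FPKM with IFN-γ and 16.3 ± 0.754 FPKM untreated and did not pass the test (limma adjusted p = 0.180). How much of the IL7 level comes from fragments of these genes was not tested.

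LIF, a cytokine of the gp130 group that acts on neurons and stem cells, was low and its groups overlapped. It was at 0.171, 0.207, 0.205 and 0.0748 FPKM in IFN-γ replicates 1 to 4, against 0.149, 0.164, 0.126 and 0.109 FPKM in untreated replicates 1 to 4. IFN-γ replicate 4 was the lowest of all 8 libraries. At most about 13.6 fragments per IFN-γ library and 12.4 per untreated library lay behind these values. LIF sits at 30240447 to 30246851 of chromosome 22, reverse strand. On the other strand, 4.41% of its exonic bases are shared with an annotated antisense gene and 2.32% with LIF-AS1.

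The receptors for LIF were among the abundant genes described here. LIFR was at 43.5, 42.4, 44.4 and 40.1 FPKM in IFN-γ replicates 1 to 4, against 25.8, 26.1, 26.1 and 27.2 FPKM in untreated replicates 1 to 4, with no overlap (log2 change 0.69, SE 0.04, limma adjusted p = 7.2e-07). Its partner chain gene IL6ST (gp130) was at 35.6 ± 0.593 FPKM with IFN-γ and 32.4 ± 1.02 FPKM untreated (log2 change 0.14, limma adjusted p = 0.0211), a call lost without IFN-γ replicate 1 or 2 or untreated replicate 1 or 3 (adjusted p = 0.0554 to 0.0618), under quantile normalization (0.415) and in TPM without short RNA genes (0.601). OSMR, a receptor chain for oncostatin M, rose to 3.56 ± 0.396 FPKM with IFN-γ, against 1.88 ± 0.137 FPKM untreated (log2 change 0.88, SE 0.10, limma adjusted p = 1.2e-04). CNTFR, the alpha chain for ciliary neurotrophic factor, fell to 31.6 ± 1.61 FPKM with IFN-γ, against 42.4 ± 0.482 FPKM untreated (log2 change -0.42, SE 0.04, limma adjusted p = 4.4e-05). In TPM its change was 0.38, or -0.41 relative to the median gene. Of the 16 genes of this list 7 were tested, 3 rose and 1 fell, with a median change of 0.14.

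**Figure D3:**
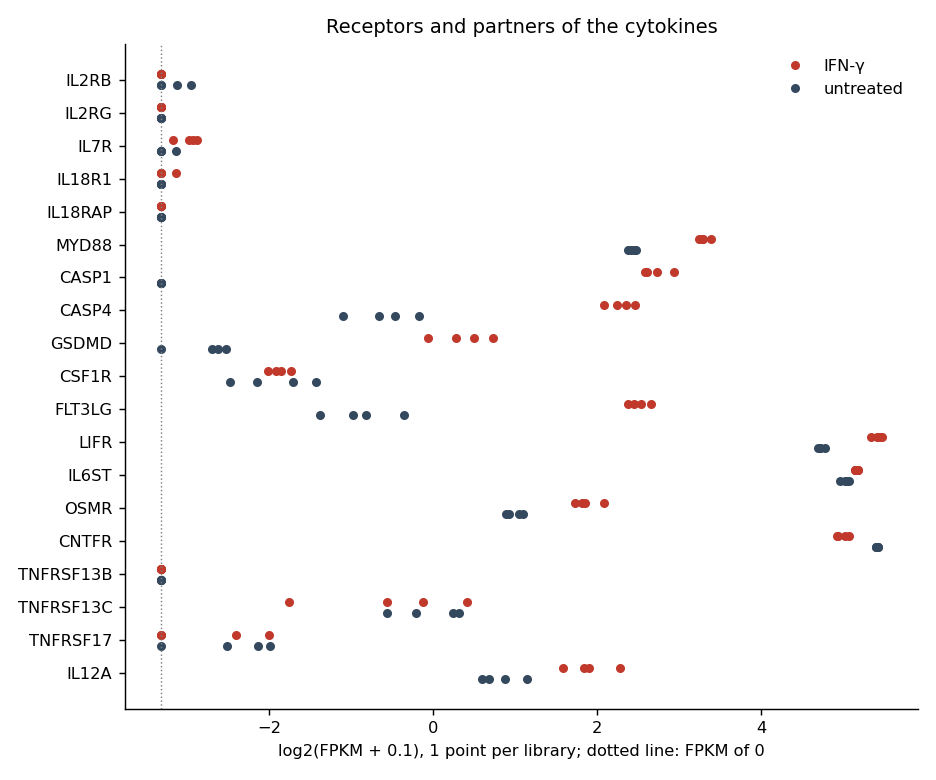
Levels of receptor chains and partner genes, 1 point per library on the log2(FPKM + 0.1) scale, IFN-γ above untreated for each gene, with the dotted line at an FPKM of 0. IL2RB, IL2RG, IL7R, IL18R1, IL18RAP and TNFRSF13B lie at or next to the line, while CASP1, CASP4, GSDMD, FLT3LG, LIFR and IL12A are higher with IFN-γ in all 4 libraries.

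IL32, a pro-inflammatory cytokine gene, was seen in IFN-γ libraries only. It was at 0.386, 0.520 and 0.418 FPKM in IFN-γ replicates 1, 2 and 4 and listed at 0 in replicate 3, and listed at 0 in all 4 untreated libraries. The values correspond to about 9.77 to 11.6 fragments where it was seen. The groups overlapped at 0, and the gene lay below the filter (p = 0.143 by exact permutation, two-sided). In a fit of every gene with any value above 0, which IL32 entered through its IFN-γ libraries alone, limma adjusted p was 0.0447. The same fit gave a limma adjusted p of 0.871 for IL18, 0.742 for LIF and 0.580 for TNFSF13B. The log2 difference of IL32 was 1.82, but 0.39 with a pseudocount of 1 and 4.11 with a pseudocount of 0.01. IL32 sits at 3065297 to 3082192 of chromosome 16, forward strand. There 4.02% of its exonic bases are shared with RNU1-125P, a small nuclear RNA gene of the same strand. How much of the IL32 level comes from that gene was not tested.

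TNFSF13B (BAFF), a survival factor of B cells, was low in every library. It was at 0.310, 0.319, 0.113 and 0.318 FPKM in IFN-γ replicates 1 to 4, against 0.0703, 0.159, 0.276 and 0.274 FPKM in untreated replicates 1 to 4. The groups overlapped, on about 4.93 to 16.7 fragments with IFN-γ and 3.01 to 11.6 untreated. Of its receptor genes, TNFRSF13B was listed at 0 in all 8 libraries and TNFRSF17 was at most 0.150 FPKM with IFN-γ and 0.152 FPKM untreated. TNFRSF13C, at 0.704 ± 0.434 FPKM with IFN-γ and 0.890 ± 0.268 FPKM untreated, was not called. Of the 20 TNF superfamily ligands and BAFF receptors listed, 2 were tested and neither passed.

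TNFSF13B sits at 108251240 to 108308484 of chromosome 13, forward strand. Both of its RefSeq windows, which overlap, held an ISRE and no GAS. One is shown because it shares 12 letters with the IL18BP window above, from 17 here and from -68 there: TGAAAGTGAAAT. That run was found in 6 of the 34943 windows (0.0172%), among them the IL18BP window and both TNFSF13B windows. It was picked as the longest run common to the printed windows, so its rarity carries no test. Its ISRE lies from 18 to 27 relative to the start base, cores overlap it from 14 to 21 and from 20 to 27, and another core lies at -94 to -87.
TNFSF13B promoter, chr13:108269379-108269678, forward strand: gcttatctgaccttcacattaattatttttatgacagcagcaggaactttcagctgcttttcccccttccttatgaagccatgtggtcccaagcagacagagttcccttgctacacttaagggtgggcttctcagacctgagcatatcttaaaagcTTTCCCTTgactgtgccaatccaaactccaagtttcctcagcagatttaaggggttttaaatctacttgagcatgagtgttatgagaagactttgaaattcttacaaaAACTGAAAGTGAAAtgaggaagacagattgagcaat

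**Figure D4:**
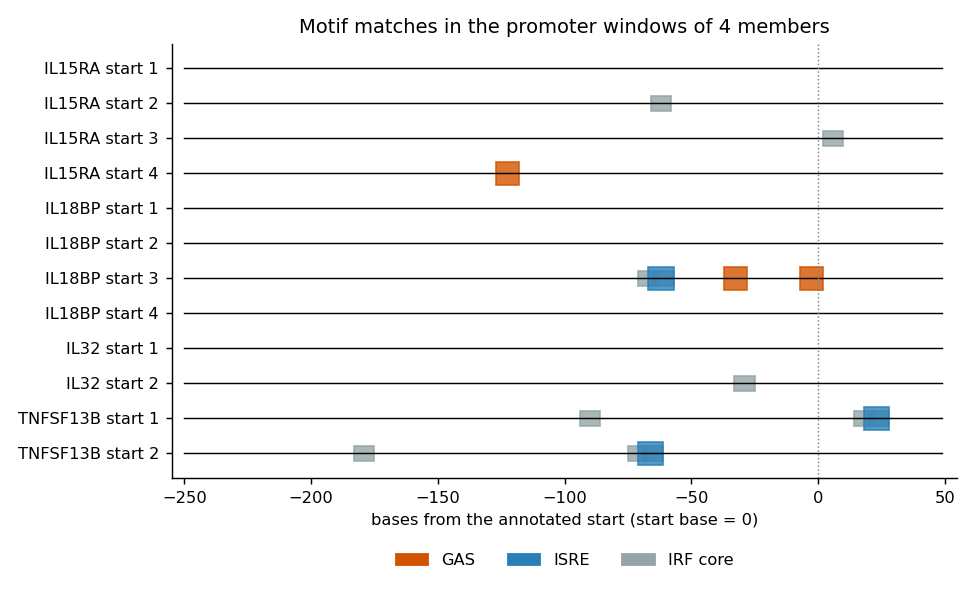
Positions of GAS, ISRE and core matches in the 12 RefSeq windows of IL15RA, IL18BP, IL32 and TNFSF13B, as distance in bases from the annotated start (start base at 0), with 1 line per window. Among these, the only window with both an ISRE and a GAS is 1 of the 4 of IL18BP, and the ISRE of TNFSF13B appears in both of its overlapping windows.

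Among 35 other interleukins, interferons and related cytokines, 15 were listed at 0 in all 8 libraries, 6 were tested and 1 rose. That was IL12A, a subunit of interleukin 12 and interleukin 35, at 3.62, 2.88, 3.47 and 4.73 FPKM with IFN-γ, against 1.72, 1.50, 1.41 and 2.10 FPKM untreated (log2 change 1.08, SE 0.16, limma adjusted p = 9.3e-04). The groups did not overlap.

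For each called member the genes with the most similar change were sought over the 8 libraries, by the root mean square difference of log2(FPKM + 0.1) after subtraction of each gene's untreated mean. Nearest to IL18BP were RSAD2, an antiviral enzyme, at 0.103 and HCP5, a non-coding RNA of the MHC region, at 0.109. Nearest to CSF1 were BTN3A3, a butyrophilin, at 0.0686 and SAMHD1, a dNTP hydrolase, at 0.0843. Nearest to IL15 were MT2A, a metallothionein with near-identical copies, at 0.159 and PLSCR1, a phospholipid scramblase, at 0.176. Nearest to IL15RA were IL12RB2, a receptor chain for interleukin 12, at 0.201 and OASL, an oligoadenylate synthetase relative listed at 0 in all 4 untreated libraries, at 0.279. Nearest to IL7 were ERP44, an endoplasmic reticulum chaperone, at 0.0842 and SCYL3, a pseudokinase, at 0.0855. These distances were computed with a pseudocount of 0.1 only, and the size of change depends on it where untreated levels are low. With a pseudocount of 1 the log2 change was 4.23 for IL18BP, against 2.50 for RSAD2 and 2.87 for HCP5. For IL15RA it was then 1.45, against 3.31 for IL12RB2 and 1.27 for OASL. The nearest genes under other pseudocounts were not sought.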

How the data were processed

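RNA was measured in 8 BE(2)-M17 libraries, 4 with IFN-γ and 4 untreated, grouped by the labelled treatment. The deposited FPKM values were made by the authors with TopHat2 and Cuffdiff on hg38, per the submitters' processing notes, with an annotation, tool versions and scaling between libraries not given in the sources used here. The unit is relative to mapped fragments and transcript length. The kit named in the labels does not mark strand. Depth came from the steps of low FPKM in genes with 1 transcript of over 1500 nt and is approximate. The search for the step began from a fixed range of low values, which limits the depth it can return. All fragment counts given here rest on that step.

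Values were used as log2(FPKM + 0.1). Genes averaging 0.5 FPKM or more (13598) were compared by limma 3.58.1 (R 4.3.3) with a mean-variance trend, two-sided, with Benjamini-Hochberg adjustment and a threshold of 0.05. The fit was tested on simulated data. Alternatives were other pseudocounts, filters, scalings and limma settings, the replicate number as a block, and each library left out. Replicate pairs with IFN-γ replicate 4 differed by 4.70 to 5.39 times the counting variance, and the other pairs by 1.40 to 2.18 times. Each library was counted, although these values do not show whether replicates were separate cultures. Positions came from GENCODE release 29 (GRCh38) and promoter windows from RefSeq (GRCh38.p14). Windows of IL15, IL18, IL7, CSF1 and LIF were not used here.

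Members and lists were chosen with earlier results of these data known. Genes named were the members, overlapping genes, up to 4 called genes a list by size of change without overlap between groups, receptor chains, CASP1, IRF1, the 2 nearest profiles per called member, and markers. STAT5B, IL4R, IL13RA1, AIM2, PYCARD, NLRC4, NLRP1, NLRP3 and SNORD3A were added after their values were seen. A few of the genes so chosen are left out of the text.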

Additional observations from a re-analysis of the deposited data

Results flagged for a closer look

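A library far from the other 3 of its group was found in 4 of the 82 groups tested. For normally distributed values chance flags about 1 group in 20. That rate does not hold for IL18R1 and IL7R, since a gene listed at 0 in the other 3 libraries is always flagged. TNFSF13B was at 0.113 FPKM in IFN-γ replicate 3, where the next value was 0.310 FPKM. IL18R1 was at 0.0137 FPKM in IFN-γ replicate 4 and listed at 0 in the others. IL7R was at 0.0136 FPKM in untreated replicate 3 and listed at 0 in the others. SCYL3 was at 7.86 FPKM in untreated replicate 3, where the next value was 6.93 FPKM.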

How the results depend on the processing

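The rises of IL18BP, CSF1, IL15, IL15RA and IL7 kept their direction and passed under every alternative run, with log2 changes of 4.23 to 5.27, 2.83 to 4.38, 2.35 to 3.94, 1.45 to 5.56 and 0.48 to 1.37, except that IL15RA was not tested with a filter at 1 FPKM. Without 1 library they were 4.43 to 4.50, 3.56 to 3.66, 3.09 to 3.25, 3.66 to 3.96 and 0.52 to 0.64. In TPM the median gene shifted by 0.79, and relative to the median of each setting the IL7 change was 0.48 to 0.65. The IL15RA minus IL15 difference was reversed at -0.90 with a pseudocount of 1 and missed the threshold at 0.045 with quantile normalization and 0.51 in TPM. Without 1 library it was 0.48 to 0.72, where the smallest p possible is 0.0571. Over all genes, 1809 were called higher and 1230 lower. Quantile normalization gave 1470 higher and 2564 lower, so 36.4% of calls were higher, against 59.5% in FPKM. TPM gave 9442 and 20 (99.8% higher), and TPM without short RNA genes 1145 and 1775 (39.2% higher). Without 1 library, 1474 to 2165 were higher and 854 to 1698 lower. CNTFR and NUMA1 were at 0.38 and 0.53 in TPM, but at -0.41 and -0.26 relative to its median gene. The short RNA gene SNORD3A made up 53.2, 57.9, 5.97 and 55.7% of the summed FPKM in untreated replicates 1 to 4. It made up 0% in each IFN-γ library. In TPM without short RNA genes the median gene moved by -0.096. The cause of these shifts between settings was not tested. With the replicate number as a block, 1639 genes were higher and 1017 lower, and the members' calls held, but same-numbered libraries did not deviate together (r from -0.027 to 0.079), so the numbers do not pair them. JAK1, IL6ST and TRAF6 missed the threshold under the block (adjusted p = 0.0579, 0.0627 and 0.0710). Values under 0.5 FPKM rest on few fragments.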

Other observations

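Of 6 genes listed as fibroblast markers, 4 passed the filter in this neuroblastoma line. COL1A2 was listed at 0 in all but IFN-γ replicates 2 and 4, and COL3A1 averaged 0.284 FPKM with IFN-γ and 0.0995 FPKM untreated, both below the filter. DCN was at 143 FPKM with IFN-γ and 140 FPKM untreated and did not pass the test. LUM was at 32.5 and 20.3 FPKM (log2 change 0.66, limma adjusted p = 0.00152) and PDGFRB at 21.0 and 8.20 FPKM (1.35, 9.5e-08), both higher with IFN-γ, while COL1A1 was lower at 1.37 and 1.86 FPKM. The 6 markers of this list summed to 184 to 239 FPKM with IFN-γ and 166 to 176 FPKM untreated.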
